A study of Rattus norvegicus with 20 samples.

Results

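Tubular injury and repair markers are genes that kidney tubule cells, or cells around them, raise or lower after damage. The group described here holds 10 genes: Havcr1, Lcn2, Spp1, Clu, Vcam1, Cd44, Sox9, Timp1, Cdkn1a and Gdf15. They were picked by gene symbol out of 32907 gene identifiers in the deposited tables, where all are listed as protein-coding, and 10 of 10 passed the filter on low values in both tables. The study measured RNA of whole kidneys from male Wistar rats, labelled WT and 10 to 12 weeks old, by bulk RNA sequencing. Every group was treated for 28 days through osmotic minipumps placed under the skin. Cyclosporine A (n = 4 libraries) was given against saline (n = 4). Tacrolimus (n = 6, target trough 3.5 ng/ml) was given against its vehicle of 25% DMSO and 75% PEG500, called DMSO/PEG here (n = 6). The cyclosporine A target is given as 3 mg/ml in the design text. Both drugs are calcineurin inhibitors, immunosuppressants used after transplantation, and nephrotoxicity is the question named in the title. The labels number the libraries within a group but do not tie each to its own animal, so p-values measure the spread between these libraries.

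Injured tubule cells lose features of the mature epithelium and pass through a state in which they make new surface receptors, secreted proteins and matrix proteins before they recover or fail to. Havcr1 (kidney injury molecule) and Lcn2 (neutrophil gelatinase-associated lipocalin) are used as markers of acute tubular damage. Spp1 (osteopontin), Clu (clusterin), Vcam1, Cd44 and Sox9 are known from cells in repair, while Cdkn1a, the p53 target p21, stops the cell cycle and Gdf15 is a stress cytokine. Timp1 blocks matrix metalloproteinases. In whole kidney RNA, fewer cells of a type and less RNA per cell cannot be told apart.

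The sequences just upstream of these genes are shown for the members that varied together between libraries of the tacrolimus table by both correlation measures, Spp1 with Cdkn1a and Vcam1 with Cd44. In the cyclosporine A table these pairs had r = -0.11 and -0.44 (n = 8), given as a description and not tested. RefSeq (GRCr8) gives a window from 250 bases before to 50 bases after the gene start for 8 of the 10 members, and none was matched for Clu and Sox9. Capitals mark matches, on either strand, to the TATA box (TATAAA), the AP-1 site (TGANTCA), the GC box (GGGCGG), the NF-kappaB site and the p53 half-site. The Spp1 window is chr14:5619755-5620054, the Cdkn1a window chr20:7150682-7150981, the Vcam1 window chr2:206742734-206743033 and the Cd44 window chr3:109699375-109699674. Cdkn1a lies on the forward strand and the other 3 on the reverse strand, and each window reads 5′ to 3′ along its gene.
Spp1: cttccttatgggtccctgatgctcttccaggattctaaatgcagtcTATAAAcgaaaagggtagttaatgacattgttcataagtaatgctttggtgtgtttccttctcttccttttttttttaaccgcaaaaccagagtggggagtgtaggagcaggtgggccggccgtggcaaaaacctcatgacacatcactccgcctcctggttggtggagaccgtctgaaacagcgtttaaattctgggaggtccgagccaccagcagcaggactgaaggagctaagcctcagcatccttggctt
Cdkn1a: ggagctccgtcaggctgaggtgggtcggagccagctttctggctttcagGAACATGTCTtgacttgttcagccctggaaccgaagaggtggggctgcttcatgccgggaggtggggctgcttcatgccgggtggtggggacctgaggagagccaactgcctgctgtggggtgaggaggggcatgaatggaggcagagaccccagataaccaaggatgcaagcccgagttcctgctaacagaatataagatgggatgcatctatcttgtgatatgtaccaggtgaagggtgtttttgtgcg
Vcam1: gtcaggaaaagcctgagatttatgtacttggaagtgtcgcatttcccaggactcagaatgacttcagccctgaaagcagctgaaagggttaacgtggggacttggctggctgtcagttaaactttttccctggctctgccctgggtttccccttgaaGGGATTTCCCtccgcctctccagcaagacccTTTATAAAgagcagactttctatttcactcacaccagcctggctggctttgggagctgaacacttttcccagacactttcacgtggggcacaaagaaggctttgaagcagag
Cd44: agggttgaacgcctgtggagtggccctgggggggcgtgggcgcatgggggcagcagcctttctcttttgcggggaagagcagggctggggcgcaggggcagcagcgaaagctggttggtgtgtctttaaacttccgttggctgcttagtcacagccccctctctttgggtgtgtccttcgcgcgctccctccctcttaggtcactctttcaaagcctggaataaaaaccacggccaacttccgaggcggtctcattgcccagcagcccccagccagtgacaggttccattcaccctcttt
The Spp1 window held TATAAA at position -204 from the start, and the Cdkn1a window held a p53 half-site at -201. In Vcam1 an NF-kappaB match that meets the motif on both strands began at -93, followed by TATAAA at -60, which overlaps a reverse-strand match of the same motif. The Cd44 window held none of the 5 motifs, which says only that these letters are not in that window. Among the other members, Lcn2 held an NF-kappaB match at -242, Timp1 a GC box at -142, and 1 of the 2 windows of Gdf15 held TATAAA at -28 with 5 GC boxes. Havcr1 held none. Of all 33469 windows of this length, 14.2% held TATAAA, 7.33% the AP-1 site, 33.1% the GC box, 7.51% the NF-kappaB site and 7.98% the p53 half-site. A match is a description of the sequence and not a binding site.

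Assigned fragments ranged from 30468799 to 34308987 with saline or cyclosporine A and from 31670202 to 39358485 with DMSO/PEG or tacrolimus. In the first table much of that depth was mitochondrial. The mitochondrial share was 59.8% ± 7.97 (SD, n = 4) with saline and 84.7% ± 4.68 (SD, n = 4) with cyclosporine A (p = 0.0286 by a 2-sided exact permutation test, which can go no lower over 70 arrangements). Fragments of nuclear genes therefore numbered 10283990 to 17256836 with saline and 2905876 to 6549317 with cyclosporine A. The shares were 11.9% ± 1.13 with DMSO/PEG and 12.4% ± 1.88 with tacrolimus (SD, n = 6 each, exact permutation p = 0.606). FPKM, fragments scaled by gene length and library depth, were deposited relative to all fragments in the cyclosporine A table. On that scale the median change of all 13455 genes tested was -0.89 on the log2 scale. Changes are therefore given on rescaled FPKM, in which median-of-ratios size factors set the typical gene equal between libraries, and deposited values stand beside them. The deposited values of the tacrolimus table already follow such factors. Fold changes are differences of mean log2(FPKM + 1), drug minus own vehicle, and understate the change of genes at low FPKM. Levels of the 2 tables were scaled separately and are not compared.

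None of the 10 injury and repair genes passed the threshold of an adjusted p under 0.05 with either drug (limma over all genes tested). With cyclosporine A on rescaled FPKM, 9 of 10 fold changes were above 0, with a median of 0.43 and a range from -0.41 for Sox9 to 1.19 for Clu. Over all genes 0.609% passed the threshold (82 of 13455), and 49.9% of fold changes were above 0. Before adjustment 3 members had p under 0.05 (Clu, Spp1 and Sox9), against 16.2% of all genes. With tacrolimus, 6 of 10 fold changes were above 0, with a median of 0.19, against 49.8% of all genes. There 0.303% of all genes passed (47 of 15493), and the groups overlapped for every member, as for all but 0.975% of genes. Havcr1 was the 1 member with an unadjusted p under 0.05, against 8.58% of all genes.

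**Figure D1:**
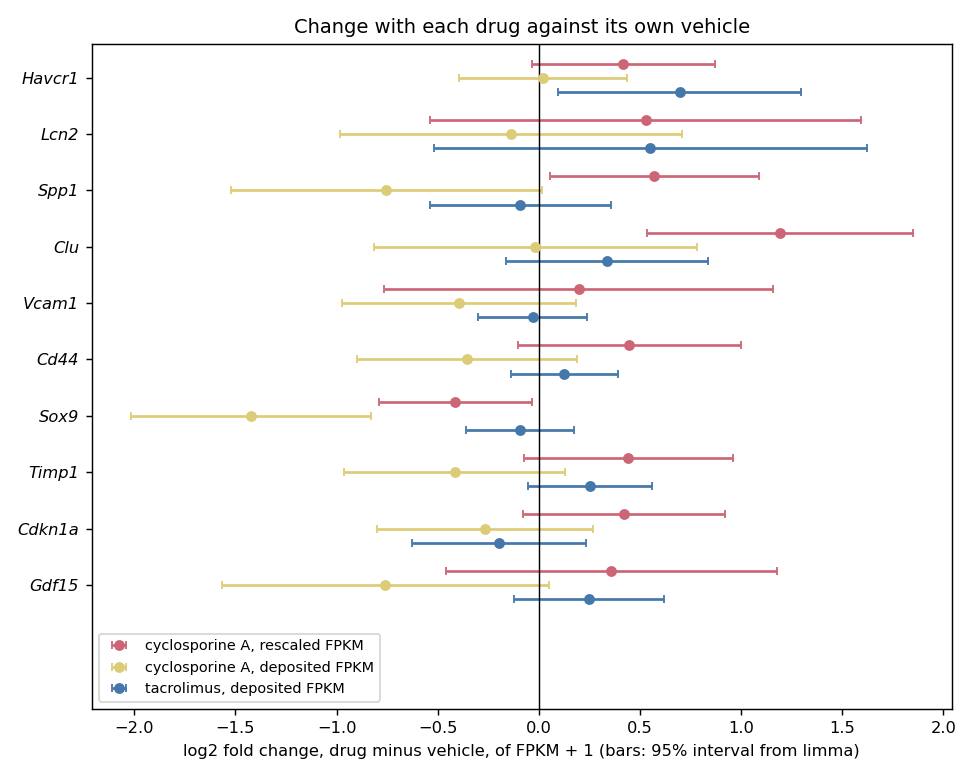
log2 fold change of each gene with its 95% interval (x axis, drug minus own vehicle, on FPKM + 1) for cyclosporine A on rescaled and on deposited FPKM and for tacrolimus on deposited FPKM. On rescaled FPKM 9 of the 10 cyclosporine A points lie right of 0, and on deposited FPKM 9 of the 10 lie left of it.

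The scale of the cyclosporine A table decided the sign of most members. On deposited FPKM 9 of 10 fold changes were below 0, with a median of -0.38, and 2.46% of all genes were above 0. Sox9 alone passed the threshold as lower (-1.42 ± 0.28 SE, limma adjusted p = 7.01e-04), with all 4 cyclosporine A libraries below all saline libraries. On that scale 81.1% of all genes passed, 80.9% as lower, and 67.9% had cyclosporine A libraries that all lay below saline. Without mitochondrial genes in the total, the fold changes were close to those on rescaled FPKM, with Clu at 1.28 and Sox9 at -0.34.

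Havcr1 encodes a receptor with which injured proximal tubule cells bind dying cells, and it is hardly expressed in healthy tubules. The gene (ENSRNOG00000007243) lies on chromosome 10 at 31813814 to 31848379, forward strand, on the deposited build (rn6 per the submitters' processing notes, as for the positions that follow). With tacrolimus Havcr1 ran from 0.244 to 4.39 FPKM with a median of 0.970, and with DMSO/PEG from 0.151 to 0.561 with a median of 0.288. Tacrolimus replicates 1, 2, 3 and 5 lay above every DMSO/PEG library, while replicates 4 and 6 lay among them. Means were 1.43 ± 1.52 FPKM with tacrolimus and 0.329 ± 0.165 with DMSO/PEG (SD, n = 6 each), a log2 fold change of 0.70 ± 0.28 (SE). The unadjusted p was 0.0263 by limma and 0.0260 by the exact permutation test over 924 arrangements, and the limma adjusted p over all genes was 0.465. Replicate 2 decided much of the size: without it the fold change was 0.43, with an unadjusted limma p of 0.0511. With cyclosporine A the 4 libraries held 0.937, 1.37, 0.671 and 0.207 rescaled FPKM, and with saline 0.381, 0.117, 0.174 and 0.605. Here 3 of 4 cyclosporine A libraries exceeded the highest saline library and replicate 4 did not. The Havcr1 fold change was 0.42 ± 0.20 (SE, limma adjusted p = 0.346; exact permutation p = 0.114). On deposited FPKM it was 0.02, the lowest of 15 settings, and the highest was 1.43. With tacrolimus the Havcr1 fold change ran from 0.43 to 1.70 over 19 settings. These levels rest on few fragments, 11 to 146 per library with saline or cyclosporine A and 20 to 678 with DMSO/PEG or tacrolimus.

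Lcn2 encodes a secreted lipocalin that binds bacterial siderophores and is released by injured distal tubules and by neutrophils. The gene (ENSRNOG00000013973) lies on chromosome 3 at 11414186 to 11417546, reverse strand. Lcn2 levels under cyclosporine A were 0.295, 7.37, 1.24 and 1.24 rescaled FPKM, and under saline 1.61, 0.570, 0.581 and 0.945. Cyclosporine A replicate 2 stood alone, and the other 3 libraries lay within or below the saline range. The Lcn2 fold change of 0.53 ± 0.48 (SE, limma adjusted p = 0.638) was -0.01 without that library and -0.14 on deposited FPKM. With tacrolimus Lcn2 ran from 0.257 to 6.04 FPKM with a median of 4.64, and with DMSO/PEG from 0.187 to 5.53 with a median of 2.02. High and low libraries occurred in both groups, and the fold change was 0.55 ± 0.50 (SE, limma adjusted p = 0.850). It ran from 0.29 without DMSO/PEG replicate 3 to 0.90 without tacrolimus replicate 2. Within DMSO/PEG alone the highest library held 29.6 times the lowest.

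Spp1 encodes osteopontin, a secreted matrix protein that binds integrins and Cd44 and is made by the normal thick limb and distal tubule as well as by injured cells. The gene (ENSRNOG00000043451) lies on chromosome 14 at 6673686 to 6679901, reverse strand, and had the highest FPKM of the members in both tables. Spp1 levels under cyclosporine A were 161, 285, 132 and 187 rescaled FPKM, and under saline 167, 105, 112 and 118. All 4 cyclosporine A libraries lay above the saline median, but saline replicate 1 lay above 2 of them. The Spp1 fold change was 0.57 ± 0.23 (SE), with a limma p of 0.0335 before and 0.264 after adjustment (exact permutation p = 0.0857). It was -0.75 on deposited FPKM and 0.36 without cyclosporine A replicate 2. With tacrolimus Spp1 ran from 192 to 465 FPKM with a median of 244, and with DMSO/PEG from 207 to 364 with a median of 291. The tacrolimus median was the lower one although its replicate 2 was the highest library of the table. The Spp1 fold change was -0.09 ± 0.21 (SE, limma adjusted p = 0.950), with a 95% interval from -0.54 to 0.36.

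Clu encodes clusterin, a secreted chaperone that coats misfolded proteins and is made by injured tubules. It lies on chromosome 15 at 42640146 to 42665857, forward strand (ENSRNOG00000016460). Clu levels under cyclosporine A were 12.5, 32.5, 12.1 and 14.2 rescaled FPKM, and under saline 9.35, 5.89, 5.11 and 6.60. Clu was the 1 member whose cyclosporine A libraries all lay above all saline libraries, as 4.81% of all genes did. The Clu fold change of 1.19 ± 0.29 (SE) had a limma p of 0.00242 before and 0.0956 after adjustment, and an exact permutation p of 0.0286, which is the lowest possible here. It ran from 0.87 without cyclosporine A replicate 2 to 1.34 without saline replicate 1, with an unadjusted limma p under 0.05 in 8 of 8 such fits and an adjusted p of at least 0.0662. A weighted fit on recovered fragments (limma voom), in which 1.02% of all genes passed as higher, gave 1.32 with an adjusted p of 0.0427. On deposited FPKM the Clu fold change was -0.02 and the groups overlapped. With tacrolimus Clu ran from 29.0 to 97.3 FPKM with a median of 41.7, and with DMSO/PEG from 29.2 to 40.1 with a median of 37.6. Replicate 2 was the far library of the tacrolimus group, and replicates 1 and 6 also exceeded the DMSO/PEG range. The Clu fold change of 0.34 ± 0.23 (SE, limma adjusted p = 0.760) was 0.12 without replicate 2.

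**Figure D2:**
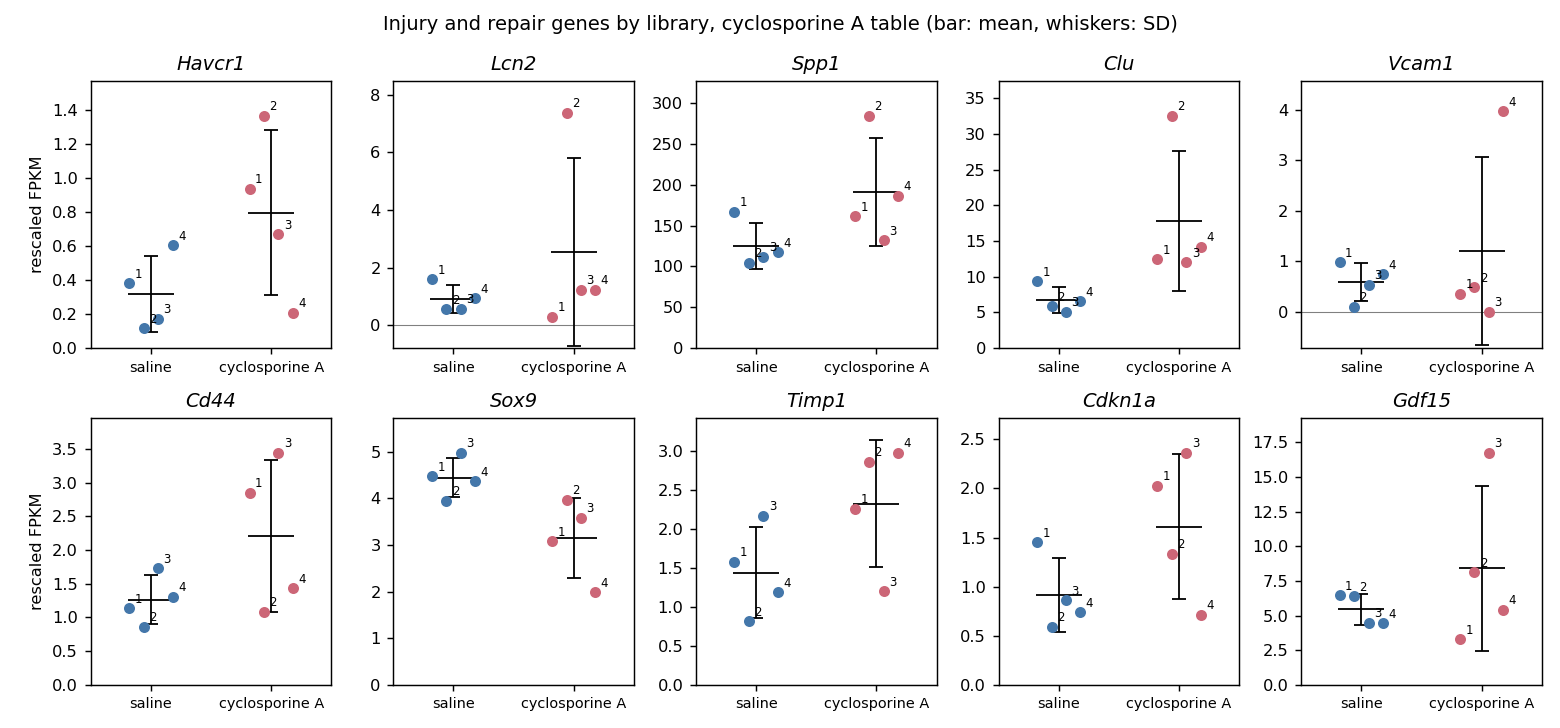
Rescaled FPKM of the 10 genes in each saline and cyclosporine A library (points with replicate numbers), with the group mean and SD (n = 4 each, whiskers may pass below 0). The Clu panel has no overlap between groups, and the Lcn2 and Vcam1 panels each have 1 cyclosporine A library far above the rest (7.37 and 3.98).

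Timp1 encodes an inhibitor of matrix metalloproteinases that is made by injured tubules and by fibroblasts. It lies on chromosome X at 1364786 to 1369384, reverse strand (ENSRNOG00000010208). Timp1 levels under cyclosporine A were 2.27, 2.87, 1.20 and 2.99 rescaled FPKM, and under saline 1.58, 0.815, 2.18 and 1.19. In 3 of 4 cyclosporine A libraries Timp1 exceeded the highest saline value, and replicate 3 lay at the level of saline replicate 4. The Timp1 fold change was 0.44 ± 0.23 (SE, limma adjusted p = 0.385), and -0.42 on deposited FPKM. With tacrolimus Timp1 ran from 6.90 to 13.3 FPKM with a median of 8.32, and with DMSO/PEG from 5.92 to 8.94 with a median of 7.61. Tacrolimus replicates 1 and 2 lay above the DMSO/PEG range and the other 4 inside it. The Timp1 fold change was 0.25 ± 0.14 (SE, limma adjusted p = 0.686) and 0.15 without replicate 2.

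Vcam1 encodes an adhesion molecule of activated endothelium that proximal tubule cells also make when repair fails. It lies on chromosome 2 at 219071193 to 219097619, reverse strand (ENSRNOG00000014333). Vcam1 levels under cyclosporine A were 0.359, 0.487, 0 and 3.98 rescaled FPKM, and under saline 0.979, 0.101, 0.534 and 0.740. Replicate 4 alone was high, and the other 3 lay within or below the saline range. Replicate 3 had no fragment, which allows up to 0.0483 rescaled FPKM (3 fragments, counting error only). The Vcam1 fold change was 0.20 ± 0.43 (SE, limma adjusted p = 0.869), -0.30 without replicate 4 and -0.39 on deposited FPKM. Replicate 4 also had the highest summed level of 8 fibroblast markers in the table (48.0 rescaled FPKM, against 5.98 to 9.63 in the other cyclosporine A libraries). Its sum of 13 leukocyte markers was the highest too (120, against 37.0 to 72.4), and their part in the Vcam1 value was not tested. On means of the cyclosporine A group, Dcn makes up most of the fibroblast sum (11.1 ± 14.6 rescaled FPKM) and Lyz2 most of the leukocyte sum (47.4 ± 21.2, SD, n = 4). With tacrolimus Vcam1 ran from 3.35 to 5.99 FPKM with a median of 5.17, and with DMSO/PEG from 4.07 to 6.85 with a median of 5.03. The ranges overlapped, with a fold change of -0.03 ± 0.13 (SE, limma adjusted p = 0.975) and a 95% interval from -0.30 to 0.24.

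Cd44 encodes the receptor for hyaluronan and osteopontin on leukocytes and on regenerating tubule cells. It lies on chromosome 3 at 92696313 to 92783658, reverse strand (ENSRNOG00000006094). Cd44 levels under cyclosporine A were 2.85, 1.08, 3.44 and 1.43 rescaled FPKM, and under saline 1.14, 0.864, 1.73 and 1.31. Replicates 1 and 3 lay above the saline range and replicates 2 and 4 within it, the reverse of Spp1, whose highest libraries were replicates 2 and 4. The Cd44 fold change was 0.45 ± 0.25 (SE, limma adjusted p = 0.411), and -0.36 on deposited FPKM. On rescaled FPKM it ran from 0.27 without cyclosporine A replicate 3 to 0.63 without cyclosporine A replicate 2. With tacrolimus Cd44 ran from 1.76 to 3.54 FPKM with a median of 3.00, and with DMSO/PEG from 2.03 to 3.09 with a median of 2.36. The Cd44 fold change was 0.13 ± 0.12 (SE, limma adjusted p = 0.866).

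Sox9 encodes a transcription factor that surviving proximal tubule cells switch on during repair, and it was the 1 member with a lower rescaled mean under cyclosporine A. It lies on chromosome 10 at 101288489 to 101293379, forward strand (ENSRNOG00000002607). Sox9 levels under cyclosporine A were 3.08, 3.97, 3.58 and 1.98 rescaled FPKM, and under saline 4.48, 3.94, 4.98 and 4.37. Replicates 1, 3 and 4 lay below every saline library and replicate 2 just above the lowest. The Sox9 fold change was -0.41 ± 0.17 (SE), with a limma p of 0.0350 before and 0.268 after adjustment (exact permutation p = 0.0571), and -0.26 without replicate 4. With tacrolimus Sox9 ran from 4.81 to 8.57 FPKM with a median of 7.05, and with DMSO/PEG from 6.06 to 9.14 with a median of 7.54. The Sox9 fold change was -0.09 ± 0.12 (SE, limma adjusted p = 0.911), with replicate 6 the 1 tacrolimus library below the DMSO/PEG range.

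Cdkn1a encodes p21, an inhibitor of cyclin-dependent kinases. It lies on chromosome 20 at 6351458 to 6358864, forward strand (ENSRNOG00000000521). Cdkn1a levels under cyclosporine A were 2.03, 1.34, 2.37 and 0.713 rescaled FPKM, and under saline 1.45, 0.593, 0.861 and 0.739. Replicates 1 and 3 exceeded the saline range, as they did for Cd44. The Cdkn1a fold change was 0.42 ± 0.22 (SE, limma adjusted p = 0.393), and -0.27 on deposited FPKM. With tacrolimus Cdkn1a ran from 1.39 to 2.44 FPKM with a median of 1.48, and with DMSO/PEG from 1.07 to 4.46 with a median of 1.83. The vehicle group held both the lowest and the highest library. The Cdkn1a fold change was -0.20 ± 0.20 (SE, limma adjusted p = 0.876), and -0.03 without DMSO/PEG replicate 2.

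Gdf15 encodes a secreted cytokine of the TGF-beta family that cells release under mitochondrial and endoplasmic reticulum stress. It lies on chromosome 16 at 20555395 to 20557978, forward strand (ENSRNOG00000019661). Gdf15 levels under cyclosporine A were 3.28, 8.15, 16.8 and 5.41 rescaled FPKM, and under saline 6.47, 6.38, 4.48 and 4.46. Cyclosporine A held both the lowest and the highest library of the table, and without replicate 3 the fold change of 0.36 ± 0.37 (SE, limma adjusted p = 0.683) was -0.02. It was -0.76 on deposited FPKM. With tacrolimus Gdf15 ran from 13.5 to 29.8 FPKM with a median of 18.8, and with DMSO/PEG from 11.8 to 22.0 with a median of 16.4. The Gdf15 fold change was 0.25 ± 0.17 (SE, limma adjusted p = 0.762), and 0.12 without tacrolimus replicate 4, its highest library.

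**Figure D3:**
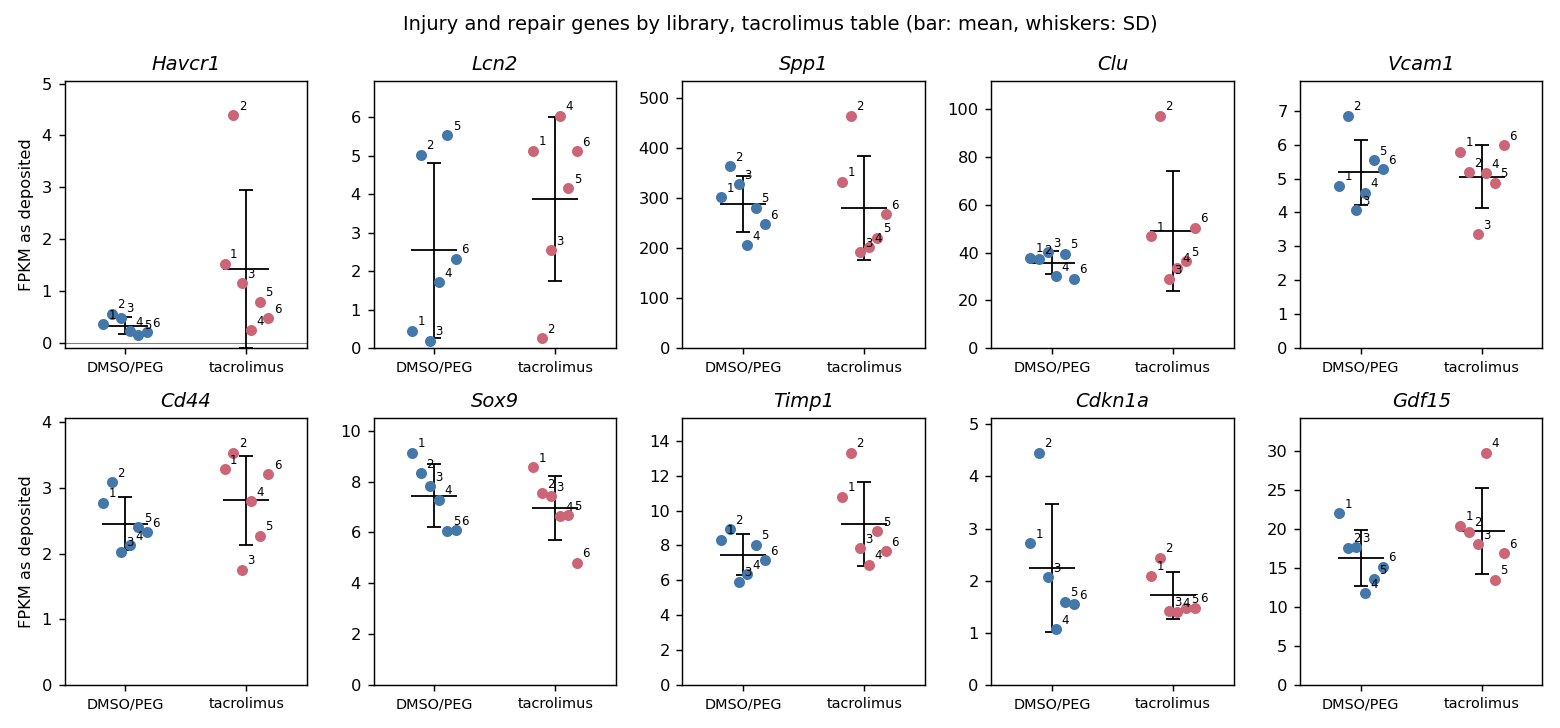
Deposited FPKM of the 10 genes in each DMSO/PEG and tacrolimus library (points with replicate numbers), with the group mean and SD (n = 6 each, whiskers may pass below 0). Tacrolimus replicate 2 is the highest library of the table for Havcr1, Spp1, Clu, Cd44 and Timp1, and the lowest of its group for Lcn2 (0.257).

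Whether the drugs differed in their effect was tested per gene as the cyclosporine A fold change less the tacrolimus one. Of the members 0 of 10 passed, against 1.61% of 13392 genes (limma standard errors, Satterthwaite degrees of freedom, Benjamini-Hochberg adjustment). Drug, vehicle and table cannot be told apart in this contrast. On this measure 7 of 10 members were above 0, against 50.7% of all genes. Clu had the widest gap, 0.85 ± 0.37 (SE), with an adjusted p of 0.268, and Spp1 followed with 0.66 ± 0.31 (SE, adjusted p = 0.299). Their unadjusted p-values from the limma errors were 0.0339 and 0.0447, and 16% of all genes fell under 0.05. The Clu gap ran from 0.53 without cyclosporine A replicate 2 to 1.07 without tacrolimus replicate 2. Havcr1 differed by -0.28, with a 95% interval from -0.99 to 0.43, and Lcn2 by -0.02, from -1.45 to 1.40. These intervals are wide enough to hold changes of either sign. Without tacrolimus replicate 2 the Havcr1 difference was -0.01. With the cyclosporine A table on its deposited scale, 3 members (Sox9 at -1.33, Timp1 at -0.67 and Gdf15 at -1.01) passed as lower under cyclosporine A, where 75.2% of all genes passed.

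Single libraries carried much of the spread. Cyclosporine A replicate 2 was the highest of its table for Havcr1, Lcn2, Spp1 and Clu, replicate 3 for Cd44, Cdkn1a and Gdf15, and replicate 4 for Vcam1 and Timp1. In this way the highest library was a cyclosporine A library for 9 of 10 members, against 63.3% of all genes, and the coefficient of variation was larger with drug for 8 of 10, against 75.7% of all genes. Replicate 1 was the highest for 0 members. With tacrolimus the highest library was a drug library for 7 of 10 members, against 43.7% of all genes, and the coefficient of variation was larger with drug for 7 of 10, against 43%. Tacrolimus replicate 2 held 5.26 times the mean Havcr1 level of the other 5 libraries, 2.47 times for Clu, 1.91 times for Spp1 and 1.59 times for Timp1. Its Lcn2 level was 0.0558 times theirs. In DMSO/PEG the high library was replicate 2, which led its group in 6 members and the table in Vcam1 and Cdkn1a. That library also had the highest sum of leukocyte markers in the table (822 FPKM, against a group median of 417), of fibroblast markers (248, against 200.4) and of endothelium markers (215, against 183). On means of the DMSO/PEG group, Lyz2 makes up most of the leukocyte sum (360 ± 128 FPKM) and Dcn most of the fibroblast sum (113 ± 18.3, SD, n = 6). The part of these cell populations in the values of the members was not tested.

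**Figure D4:**
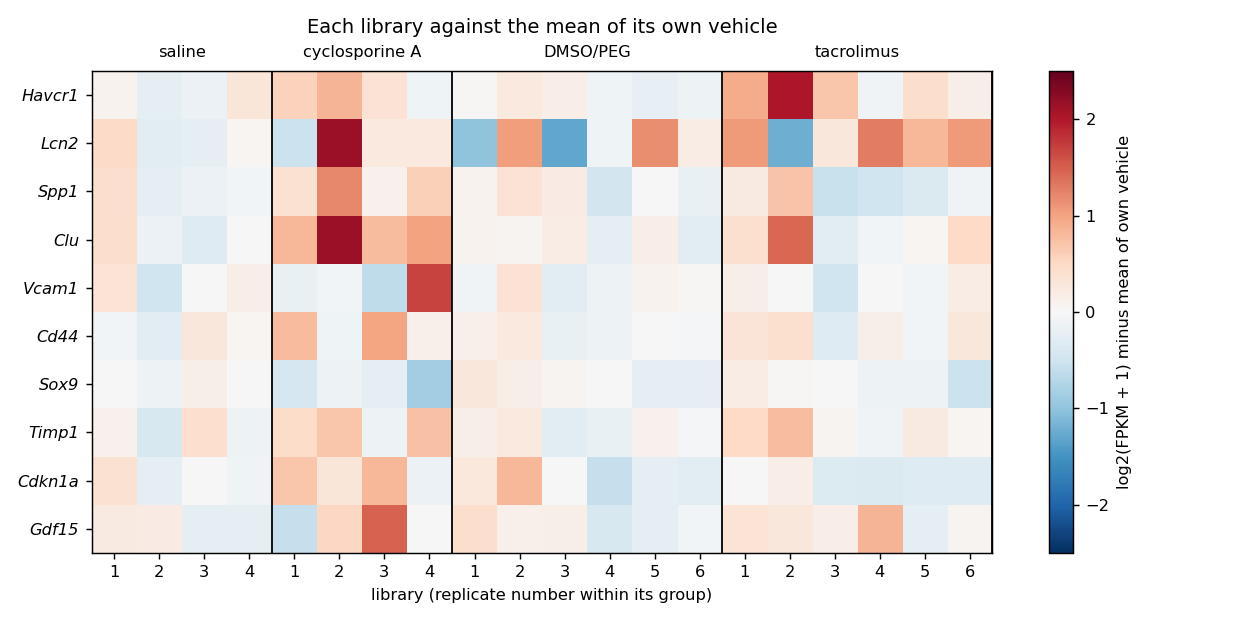
log2(FPKM + 1) of each gene (rows) in each library (columns, by group and replicate number) minus the mean of its own vehicle group, with red above and blue below. In tacrolimus replicate 2 the Havcr1, Clu and Spp1 cells are red and the Lcn2 cell is blue, and the Clu cells are red in all 4 cyclosporine A libraries.

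Within the tacrolimus table the members were also compared pair by pair, on values centred within each group (n = 12 libraries, 45 pairs, 100000 permutations within groups, Benjamini-Hochberg over the pairs). Of these, 8 pairs passed by Pearson's r, 3 by Spearman's rho and 2 by both. The share of pairs of other genes that pass was not computed. By r alone Cdkn1a also passed with Havcr1, Timp1 and Cd44 (r = 0.53, 0.66 and 0.63, adjusted permutation p = 0.0138, 0.0365 and 0.0451). Spp1 passed by r alone with Timp1 (r = 0.79, adjusted permutation p = 0.0451). Spp1 and Cdkn1a had r = 0.75 and rho = 0.83 (permutation p = 1.90e-04 and 1.40e-04, adjusted 0.00855 and 0.0063). For each pair r was also taken without the 2 libraries farthest from the median of the gene named first. Here these were tacrolimus replicates 2 and 3, far for Spp1, and r was 0.80. DMSO/PEG replicate 2, the highest library for Cdkn1a, stayed in, and its part in this relation was not tested. Vcam1 and Cd44 had r = 0.84 and rho = 0.80 (permutation p = 0.00156 and 0.0029, adjusted 0.0175 and 0.0435), and r = 0.64 without 2 libraries. Spp1 and Clu had the highest r, 0.91 (permutation p = 6.50e-04, adjusted 0.0138, and r = 0.81 without 2 libraries), with a rho of 0.77 that did not pass (permutation p = 0.00894, adjusted 0.0696). In the 8 libraries of the cyclosporine A table, given as a description, Spp1 and Clu had r = 0.94, and 0.89 without cyclosporine A replicate 2. The 2 pairs that passed by both measures had r = -0.11 (Spp1 and Cdkn1a) and r = -0.44 (Vcam1 and Cd44) there, also not tested. Havcr1 and Timp1 passed by r (0.79, permutation p = 0.00745, adjusted 0.0451), but r was 0.44 without tacrolimus replicates 2 and 4, so that relation rests on them. Havcr1 and Sox9 passed by rho alone (0.83, permutation p = 0.00204, adjusted 0.0435), with r = 0.52 over all libraries and 0.86 without those 2. Havcr1 and Lcn2, both markers of tubular damage, had r = -0.64 and rho = -0.41 (permutation p = 0.0237 and 0.175, adjusted 0.0887 and 0.358), and r = 0.51 in the cyclosporine A table.

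**Figure D5:**
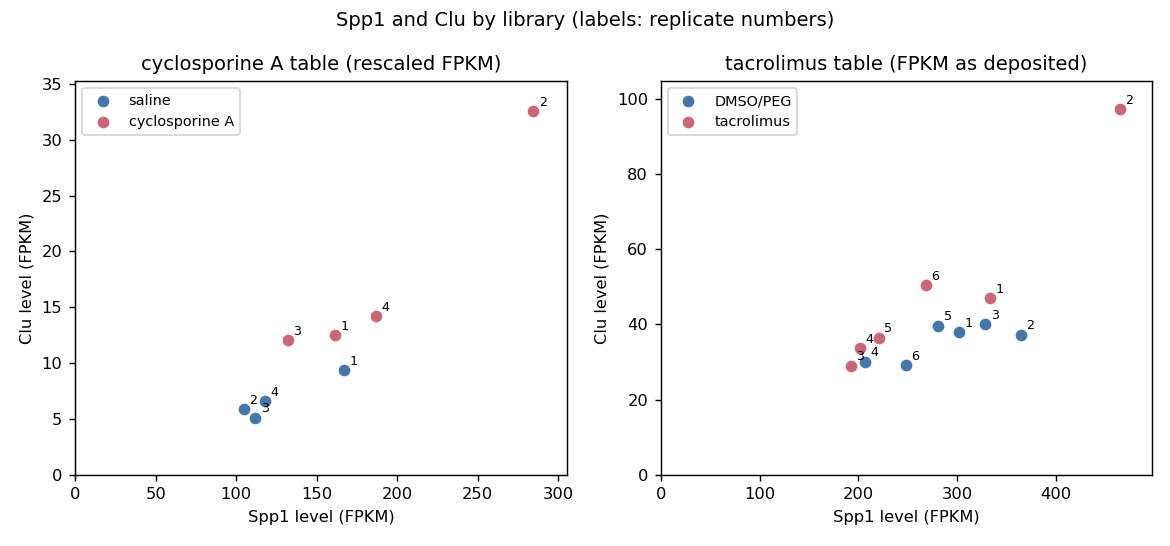
Clu level against Spp1 level in each library, in rescaled FPKM for the cyclosporine A table and deposited FPKM for the tacrolimus table, with replicate numbers as labels. Clu is higher in libraries with more Spp1 in both tables, replicate 2 is the far point of each drug group, and the cyclosporine A points lie above the saline points.

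The genes with the most similar pattern in the 12 libraries of the tacrolimus table were found among the other genes with a mean of at least 1 FPKM (13043 for Havcr1, whose own mean was lower, and 13042 for the rest), by Pearson's r on group-centred log2(FPKM + 1). For Spp1 and for Clu the first was Ino80e (0.91 and 0.92), followed by each other. Vcam1 was most like Arhgdib (0.95) and Epas1 (0.93), and Cd44 most like Gpnmb (0.92) and Rab31 (0.91). Cdkn1a was most like Limk1 (0.95) and Hopx (0.94), and Sox9 most like Sytl4 (0.94) and Phf2 (0.92). Timp1 was most like Mgp (0.91) and Dpep2 (0.88), and Havcr1 most like Hsf2bp (0.91) and Dpep2 (0.86). Lcn2 and Gdf15 had weaker partners, Rap1b (0.86) and Stambpl1 (0.86) for Lcn2, and AABR07068248.2 (0.86) and Fscn1 (0.84) for Gdf15. These values are the highest of many and are given as a description.

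Other genes of injury and dedifferentiation, from a list of 40 that holds keratins, annexins, fibrinogens, chemokines and matrix genes, were followed next. With cyclosporine A 35 were tested, and 1 rose and 0 fell, against 0.327% of all genes that rose. Before adjustment 12 of 35 had a limma p under 0.05, against 16.2% of all genes, and 26 of 35 fold changes were above 0, against 49.9%. That gene was Anxa3, a phospholipid-binding annexin, with 1.77 ± 0.459 rescaled FPKM under saline and 4.27 ± 0.912 under cyclosporine A (SD, n = 4 each; fold change 0.92 ± 0.17 SE, limma adjusted p = 0.0491). On deposited FPKM the Anxa3 fold change was -0.031, and the call was kept in 1 of 8 fits that left out a library (0.81 to 1.02). Anxa2 came next, 18.4 ± 2.80 against 29.6 ± 4.68 (fold change 0.66, limma adjusted p = 0.0761). The median of the list was 0.20, against -2.73e-04 for all genes. The 5 urothelium markers tested had a median of 0.77 in the same comparison, and Krt7 is in both lists. The part of the urothelium in the values of this list was not tested. With tacrolimus 0 of 38 passed, against 0.303% of all genes, and 5 had an unadjusted limma p under 0.05, against 8.58%. The lipid droplet gene Plin2 (-0.27, adjusted p = 0.171) and the keratin Krt8 (0.27, adjusted p = 0.181) had the smallest.

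Receptors, ligands and substrates of the members were also followed. With cyclosporine A 0 of 14 tested passed by limma and 3 had an unadjusted p under 0.05, against 16.2% of all genes. Lrp2, or megalin, and Slc22a17, which both take up lipocalin 2, had fold changes of -0.58 and -0.60 (limma adjusted p = 0.186 and 0.191). With tacrolimus 0 of 17 passed and 1 had an unadjusted p under 0.05, against 8.58% of all genes. It was the hyaluronan synthase Has3 (0.15, limma adjusted p = 0.485), followed by the integrin Itgb3 (-0.22, adjusted p = 0.615). Of the TIMP family 0 of 4 passed with either drug, and none had an unadjusted limma p under 0.05. Timp3 had a fold change of -0.14 with cyclosporine A and Timp2 of -0.08 with tacrolimus.

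The p53 targets are genes that, like Cdkn1a, p53 switches on after DNA damage. With each drug 0 of 15 tested passed. With cyclosporine A 5 had an unadjusted limma p under 0.05, against 16.2% of all genes, among them Tp53i3 (-0.69, adjusted p = 0.0786) and the stress gene Gadd45a (0.57, adjusted p = 0.0861), which point in opposite directions. With tacrolimus 2 did, against 8.58% of all genes, Sesn2 (0.41, limma adjusted p = 0.230) and Zmat3 (-0.30, adjusted p = 0.559). Of the proliferation genes 0 of 17 passed with cyclosporine A, where the kinase Cdk1 had the smallest p (0.76, limma adjusted p = 0.142), before Tyms (0.34, adjusted p = 0.333). With tacrolimus 0 of 19 passed, with Ccnd1 (cyclin D1) at -0.28 (limma adjusted p = 0.360) and Bub1 at -0.15 (adjusted p = 0.422). The cell cycle inhibitors other than Cdkn1a gave 0 of 3 and 0 of 4, and Cdkn1b (p27) had fold changes of 0.07 and 0.08. Cdkn2c had 0.12 with cyclosporine A and Cdkn1c -0.12 with tacrolimus. At an unadjusted limma p under 0.05 the proliferation genes gave 1 with cyclosporine A and 2 with tacrolimus, and the inhibitors 0 with both.

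Markers of the tubule segments and of other cells show what else moved in these kidneys. With tacrolimus the 4 distal convoluted tubule genes tested all fell, as 0.284% of all genes did, while Pvalb was listed at 0 in every library. Calb1 went from 198 ± 27.9 to 13.1 ± 0.921 FPKM and the sodium chloride transporter Slc12a3 went from 102 ± 5.50 to 43.3 ± 9.31 (SD, n = 6 each; limma adjusted p = 1.74e-11 and 1.59e-04). Trpm6 fell by 0.85 and Klhl3 fell by 0.88 on the log2 scale (limma adjusted p = 9.54e-05 and 9.95e-05). The sum of these markers ran from 276 to 352 FPKM with DMSO/PEG and from 47.8 to 75.9 with tacrolimus, with its lowest value in replicate 2, the library with the highest Havcr1. With cyclosporine A Calb1 fell by 1.85 and Umod, the uromodulin of the thick ascending limb, fell by 1.36 on the log2 scale (limma adjusted p = 0.0252 and 0.0491). Upk1a of the urothelium rose by 1.51 and Slc5a2, the proximal tubule glucose transporter SGLT2, by 0.93 (limma adjusted p = 0.0197 and 0.0385). Slc5a2 was low in both groups, at 0.278 ± 0.168 rescaled FPKM with saline and 1.45 ± 0.424 with cyclosporine A (SD, n = 4 each). The directions of Calb1, Umod, Upk1a and Slc5a2 were the same in every alternative. With a library left out the calls were kept in only 6 of 8 fits for Upk1a, 3 of 8 for Calb1, 1 of 8 for Slc5a2 and 0 of 8 for Umod. The other genes of these lists did not all share those signs. Slc12a3, Klhl3 and Trpm6, the other distal convoluted tubule genes tested, had fold changes of 0.27, 0.24 and -0.06 with cyclosporine A (limma adjusted p = 0.809, 0.614 and 0.869). Of the proximal tubule genes 3 of 10 were above 0, against 49.9% of all genes, with a median of -0.23, and 5 had an unadjusted limma p under 0.05, against 16.2%. Of the thick ascending limb genes 1 of 5 was above 0, with a median of -0.44. All 5 urothelium markers tested had fold changes above 0 (49.9% of all genes) with an unadjusted limma p under 0.05 (16.2% of all genes in either direction). The sum of the 6 listed urothelium markers ran from 34.0 to 36.2 rescaled FPKM with saline and from 46.4 to 59.3 with cyclosporine A. Of all single genes 4.81% lay fully above saline, and no such share was computed for sums. The keratin Krt7 makes up most of the urothelium sum (32.5 ± 1.24 with saline and 38.6 ± 4.09 with cyclosporine A, SD, n = 4 each). The inner medulla and papilla markers, at 115 to 192 with saline and 138 to 290 with cyclosporine A, overlapped, and their median fold change was 0.25. The thick ascending limb sums were 360 to 618 with saline and 179 to 293 with cyclosporine A, and the distal convoluted tubule sums 52.8 to 77.1 and 24.7 to 33.9, neither with overlap. Umod, at 323 ± 99.8 with saline and 125 ± 37.7 with cyclosporine A (SD, n = 4 each), makes up most of the thick ascending limb sum and the difference in it. Slc12a1, Cldn10, Kcnj1 and Cldn16 of that list had fold changes of -0.95, -0.44, -0.11 and 0.21 (limma adjusted p = 0.0512, 0.156, 0.747 and 0.512). Calb1, at 54.9 ± 13.6 with saline and 14.95 ± 6.25 with cyclosporine A (SD, n = 4 each), makes up most of the distal convoluted tubule sum and the difference in it. The proximal tubule sums were 546 to 781 with saline and 284 to 644 with cyclosporine A, lowest in replicate 4. For leukocytes they were 38.6 to 94.1 and 37.0 to 120, for fibroblasts 8.64 to 23.5 and 5.98 to 48.0, and for endothelium 17.9 to 35.9 and 13.7 to 25.3. With tacrolimus the sums overlapped their vehicle for proximal tubule, inner medulla, urothelium, leukocytes, fibroblasts and endothelium. Fold changes were above 0 for 1 of 8 fibroblast genes (median -0.24, 3 with an unadjusted limma p under 0.05) and 1 of 13 leukocyte genes (median -0.15, 0 with such a p), against 49.8% of all genes, and 8.58% of all genes had such a p. For the thick ascending limb 5 of 6 tacrolimus sums lay below every DMSO/PEG sum (median 2082 against 2402 FPKM), and replicate 6 was the highest of the table. Umod makes up most of that sum too, at 1952 ± 173 FPKM with DMSO/PEG and 1718 ± 336 with tacrolimus (SD, n = 6 each, limma adjusted p = 0.718). The part of these cell populations in the values of the 10 genes was not tested.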

How the data were processed

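Whole kidney RNA of 20 libraries was sequenced with an NEBNext kit, per the labels' protocols, and the submitters' processing notes name HISAT2 and rn6. The authors deposited FPKM in a table for cyclosporine A and saline and another for tacrolimus and DMSO/PEG, with gene position and length per the file headers. The unit was inferred from the values. The counting program, annotation release and strand setting are not given in the sources used here, so reads of overlapping antisense genes cannot be told apart.

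Whole fragments were recovered from the deposited FPKM (tolerance 0.0001 of a fragment). At the listed gene length 100% of tacrolimus values came out whole and 74.1% of cyclosporine A values. A shorter length resolved a further 4445 genes, among them Spp1, Clu, Vcam1, Cd44 and Cdkn1a. The cyclosporine A table follows all fragments of each library, and the tacrolimus table follows median-of-ratios size factors. Rescaled FPKM are the cyclosporine A values set to such factors from 12435 genes. A gene was tested if it reached 10 fragments at median depth in no fewer libraries than the smaller group holds, and 15 fragments in total.

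limma 3.58.1 (R 4.3.3) was fitted to log2(FPKM + 1) of all tested genes (group term only, trended empirical Bayes, Benjamini-Hochberg), with calls at an adjusted p under 0.05. The method was tested on simulated data in which only genes with many fragments changed, so this does not cover members with few fragments. Single values were compared with exact 2-sided permutation tests, and 95% intervals are limma's. Replicate libraries differed by more than counting noise (chi-square per degree of freedom of at least 17.6). Depth limits members with few fragments, and floors cover counting error only.

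The 10 members and all lists were chosen with earlier results of these data known, and the NF-kappaB and p53 motifs after the promoter sequences had been seen. The members are always named. From other lists each called gene is named or, with fewer than 2 called, the 2 genes of smallest p, and for each member the 2 most similar genes. Of the cell type markers genes called with either drug are named, with Pvalb, listed at 0, and Krt7, which dominates its sum, added after their values were seen. Alternatives covered the scaling, pseudocount, filter, weights, replicate block and each library left out.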

Additional observations from a re-analysis of the deposited data

Results flagged for a closer look

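In 5 of 40 groups of libraries (10 genes in 4 groups), 1 library stood far from the rest, judged by its gap to the nearest other library over the range of its group. The rule is expected to flag about 1 in 20 groups by chance, or 2 here, but in these data it flagged more. Of all genes tested 6.92% had such a library with cyclosporine A, 5.26% with saline, 11.7% with tacrolimus and 7.58% with DMSO/PEG. As the highest value of the group, it was 4.87% with cyclosporine A, 3.3% with saline, 7.12% with tacrolimus and 5.43% with DMSO/PEG. In the tacrolimus group Havcr1 was 4.39 FPKM in replicate 2 and at most 1.53 in the other 5. Clu was 97.3 FPKM in the same library and at most 50.4 in the others. In the cyclosporine A group replicate 2 held 7.37 rescaled FPKM of Lcn2, where the others held at most 1.24. It also held 32.5 of Clu, where the others held at most 14.2. Cyclosporine A replicate 4 held 3.98 rescaled FPKM of Vcam1, where the others held at most 0.487. All 5 are highest values in a drug group, and no vehicle group had such a library for these genes. They come from 3 libraries and are not independent.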

How the results depend on the processing

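No member passed the threshold in any fit that left out 1 library. The number of all genes called with cyclosporine A moved from 82 to 10911 on deposited FPKM, 1 without the filter, 269 with voom, 149 with array weights and 6 with the replicate block, and from 1 to 139 when each library was left out. Without saline replicates 1 to 4 it was 15, 27, 3 and 1, and without cyclosporine A replicates 1 to 4 it was 24, 95, 18 and 139. Members called were 1 on deposited FPKM (Sox9) and 1 with voom (Clu). With tacrolimus the 47 genes became 77 with array weights, 44 with the replicate block and 36 to 49 with a library left out. For the difference between drugs the 216 genes became 10068 on the deposited scale, 180 with the replicate block and 27 to 272 with a library left out. There 3 members were called, 2 of them with the sign turned (Timp1 -0.67, Gdf15 -1.01). Anxa3 with cyclosporine A turned to -0.031 on the deposited scale, and the replicate block and dropping the filter each ended the calls of Anxa3, Upk1a, Calb1, Slc5a2 and Umod with that drug. A pseudocount of 0.1 also ended those of Anxa3, Slc5a2 and Umod, and the deposited scale those of Anxa3 and Upk1a. Pairs of members passing were 8 by Pearson and 3 by Spearman. Beyond the deposited scale, a sign turned in full sets of libraries with cyclosporine A for Vcam1 (-0.02 with a pseudocount of 0.1, -1.33 with voom, -0.11 with array weights). With 1 library left out it turned for Vcam1 (-0.30), Lcn2 (-0.01) and Gdf15 (-0.02) with cyclosporine A, and with tacrolimus for Spp1 and Vcam1, both near 0. The cause of these shifts was not tested. Same-numbered libraries did not vary together (correlations of -0.15 to 0.21 in 4 pairs and -0.15 to 0.18 in 6), and 2 of 4 and 2 of 6 matched their own number best, so the replicate block is given as a number only. It called no member.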
